A study of Mus musculus with 8 samples.

Results

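Neural crest genes were examined in RNA sequencing of mouse outflow tracts, the vessel segment between the ventricles and the great arteries. The 9 genes were the transcription factors Sox10, Tfap2a, Foxd3, Ets1, Twist1, Snai2, Dlx5 and Dlx6 and the endothelin receptor gene Ednra. They were chosen by name as neural crest genes, though with earlier results of these data known. All 9 had a row among the 33495 genes of the deposited table, 8 under these names and Tfap2a under its older symbol Tcfap2a, matched by its Ensembl identifier. The mutant group held 4 samples with an Anterior Heart Field (AHF)-conditional Mef2c Knockout, and the other group held 4 wild type samples, all of the CD-1 background. The sources used here do not give the Cre line, the stage, the alleles of the wild type animals or the number of embryos per sample. P-values therefore reflect the spread among these 8 samples, part of which may be technical. Replicates 1 and 2 of both groups were sequenced on lane 1, and replicates 3 and 4 on lane 2.

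Neural crest cells arise at the border of the neural plate, lose epithelial contacts and migrate, and the cardiac crest enters the outflow tract, where it takes part in dividing it into aorta and pulmonary artery. Tfap2a, Foxd3, Sox10 and Ets1 are specifiers of the early crest, Twist1 and Snai2 act in the epithelial to mesenchymal transition, and endothelin signalling through Ednra switches on Dlx5 and Dlx6 in the pharyngeal arches. The anterior heart field is a separate, mesodermal lineage that gives rise to outflow tract and right ventricular muscle, so the knockout as labelled was not aimed at crest cells.

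Total counts ran from 7138732 to 11012246 per library. The targeted gene Mef2c, a MADS-box factor of muscle, had a mean of 141 CPM in mutant (SD 14.5, n = 4) and 113 in wild type (SD 12.8, n = 4) when all of its exons were summed (CPM are reads scaled to library size by the trimmed mean of M values). That sum covers more than the deleted part and so does not check the labels, while the exon with the largest change in the authors' deposited table had a log2 ratio of -3.30. The 8 outflow muscle markers were present in all libraries, led by Actc1, the cardiac actin, at 6226 to 10140 CPM. Of the 8, 0 were called, nor were any of the tested chamber muscle, erythroid, smooth muscle and epithelial markers. Of all tested genes 1.50% were called at an adjusted p under 0.05 (edgeR). Some libraries stood apart. Wild type library 4 held 113 reads of the epithelial gene Epcam and 271 of Cdh1, against at most 5 and 27 in any other library. Wild type library 2 and mutant library 4 were highest in the summed level of 5 chamber muscle genes, at 1050 and 772 CPM against 211 to 634 CPM elsewhere. Mutant library 1 and wild type library 4 lacked reads of Y-linked genes. Results that rest on these libraries are given with and without them.

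The 9 genes divided into abundant and near-silent members. By level per length (RPKM, CPM per 1000 bases of exon), wild type libraries had Ets1 at 19.4 ± 2.66 (SD, n = 4), Twist1 at 18.0 ± 5.36, Snai2 at 14.4 ± 5.86 and Ednra at 12.2 ± 2.56, and the ranges of neighbours in this order overlapped. Far below them stood Tfap2a at 2.24 ± 1.60, Dlx5 at 0.700 ± 0.326, Sox10 at 0.465 ± 0.252 and Dlx6 at 0.061 RPKM, and Foxd3 had no read. In mutant libraries Twist1 led with 31.0 ± 4.49 RPKM (SD, n = 4), and the ranges of Twist1, Ets1 (22.8 ± 1.78), Snai2 (18.2 ± 3.27), Ednra (10.8 ± 0.632) and Tfap2a (0.936 ± 0.159) did not overlap with their neighbours. Twist1 lay at the 73.7th percentile of tested genes by RPKM in wild type and at the 84.8th in mutant. The members that in the mouse mark the early, migratory crest, Foxd3 and Sox10, were thus at or near 0 in both groups, and the 4 abundant members are also expressed in mesenchyme, endothelium or smooth muscle precursors that do not come from the crest. The summed level is therefore described here by gene and not as a measure of crest cells. In whole tissue, fewer cells of a type and less RNA per cell cannot be told apart.

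**Figure D1:**
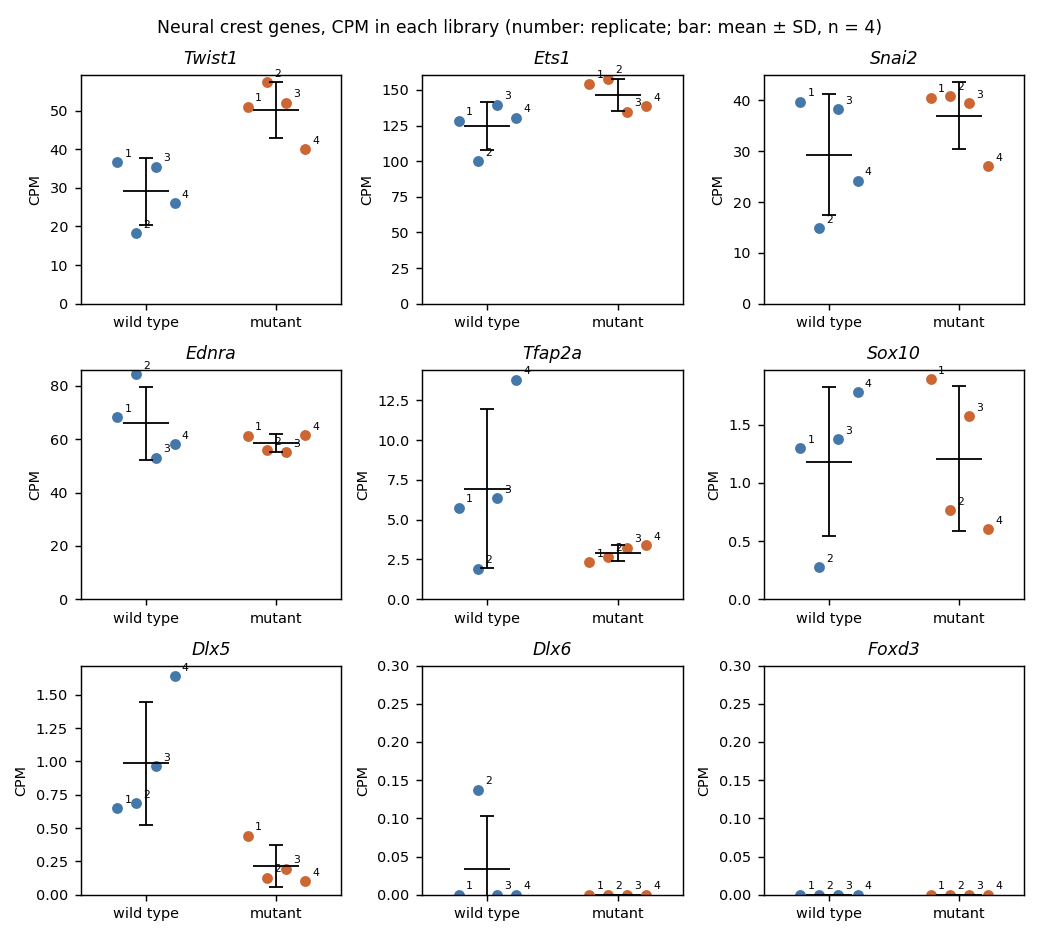
CPM (vertical axis, linear, from 0, with a separate scale in each panel) of the 9 neural crest genes in the 4 wild type (blue) and 4 mutant (orange) libraries, numbered by replicate, with the mean and SD as bars. Twist1 lies at 40.1 to 57.3 CPM in mutant and 18.3 to 36.7 CPM in wild type, while Foxd3 is at 0 in all 8 libraries.

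The start regions of 3 genes are shown because their values differ in kind. Twist1 and Msx1 had the largest mutant excess without overlap among the abundant members and the listed genes, and Ednra was abundant and did not separate the groups. The sequences are from RefSeq on GRCm38.p6, another build than that of the gene coordinates given from the table, with 250 bases before and 50 after the start, and 4 of the 9 members had an entry. They are chr12:33957421-33957720 on the plus strand for Twist1, chr5:37824536-37824835 on the minus strand for Msx1 and chr8:77724403-77724702 on the minus strand for Ednra. Capitals mark matches, on either strand, to a TATA box (TATAAA), a GC box (GGGCGG), an E-box (CANNTG, the kind of site bound by Twist1 and Snai2), an AP-2 site (GCCNNNGGC) or a MEF2 site, which can overlap a TATA box.
Twist1: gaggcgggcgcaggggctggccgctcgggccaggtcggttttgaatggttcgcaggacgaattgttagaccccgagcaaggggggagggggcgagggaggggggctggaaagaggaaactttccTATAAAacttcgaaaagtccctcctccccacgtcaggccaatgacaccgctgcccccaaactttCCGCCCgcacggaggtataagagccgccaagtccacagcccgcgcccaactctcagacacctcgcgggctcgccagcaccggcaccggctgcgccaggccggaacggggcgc
Msx1: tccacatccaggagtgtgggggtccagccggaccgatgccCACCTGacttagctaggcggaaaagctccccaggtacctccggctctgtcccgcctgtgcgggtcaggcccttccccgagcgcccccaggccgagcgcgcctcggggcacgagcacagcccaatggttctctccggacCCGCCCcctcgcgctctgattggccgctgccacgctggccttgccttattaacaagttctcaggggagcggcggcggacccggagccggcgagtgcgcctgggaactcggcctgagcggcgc
Ednra: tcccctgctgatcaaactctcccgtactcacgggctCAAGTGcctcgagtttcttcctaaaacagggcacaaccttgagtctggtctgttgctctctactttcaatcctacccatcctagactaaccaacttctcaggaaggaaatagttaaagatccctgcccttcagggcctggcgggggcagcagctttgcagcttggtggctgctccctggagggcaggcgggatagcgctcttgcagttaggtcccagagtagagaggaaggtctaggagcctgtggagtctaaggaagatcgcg
Counted from 1 at the 5′ end, the Twist1 region held a TATA box at 125 and a GC box at 189, the Msx1 region an E-box at 41 and a GC box at 179, and the Ednra region an E-box at 37. Of 32851 such regions 13.6% held a TATA box, 35.7% a GC box, 72.3% an E-box, 16.6% an AP-2 site and 3.19% a MEF2 site, and none of these 3 regions held an AP-2 or MEF2 match. The GC content was 66.0% in Twist1, 70% in Msx1 and 54.7% in Ednra.

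Between mutant and wild type, 0 of the 6 members that passed the filter on low counts changed at an adjusted p under 0.05 (quasi-likelihood test of edgeR, Benjamini-Hochberg adjustment over 14757 genes). Of all tested genes 1.50% were called, 0.562% higher and 0.942% lower in mutant. Twist1 and Tfap2a, 2 of the 6, had an unadjusted p under 0.05, a level that 11.4% of all tested genes reached. DESeq2 called 1 member, Twist1, where it called 2.98% of genes. Foxd3, Dlx5 and Dlx6 did not pass the filter.

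Twist1, a basic helix-loop-helix factor that keeps crest and cushion cells mesenchymal (chr12:34642536-34644682, plus strand, mm9), was the member whose mutant libraries all lay above the wild type libraries. Mutant libraries 1 to 4 held 460, 451, 531 and 401 of its reads, and the wild type libraries, in the same order, 396, 133, 258 and 191. Scaled for depth these were 51.1, 57.3, 52.1 and 40.1 CPM in mutant and 36.7, 18.3, 35.5 and 26.1 CPM in wild type, so the groups did not overlap, the lowest mutant library being library 4 and the lowest wild type library being library 2. No overlap was found for 6.72% of tested genes, and for 3.44% the mutant libraries were the higher ones. The log2 fold change of Twist1 was 0.78 ± 0.20 (SE, n = 4 per group), a level 1.71-fold that of wild type, and it did not pass (edgeR adjusted p = 0.0943). DESeq2 gave 0.77 with an adjusted p of 0.0104, and without mutant library 4 and wild type library 2 edgeR gave 0.70 with an adjusted p of 0.0170, where 1.99% of genes were called. Without wild type libraries 2 and 4 the log2 fold change was 0.47 (edgeR adjusted p = 0.220), and without the 2 libraries lacking Y-linked reads it was 0.72 (edgeR adjusted p = 0.396). Over the 21 alternative settings its value ran from 0.47 to 0.96 and its adjusted p from 0.0104 to 0.396. In lane 1 alone it was 0.96 and in lane 2 alone 0.57, and the test of that difference had an adjusted p of 0.706 (edgeR). In the authors' deposited table Twist1 had a false discovery rate of 3.63e-04 and pooled FPKM of 31.2 in mutant and 18.2 in wild type, and 1.73% of the rows there reached 0.05. Of 8 endothelial marker genes 1 rose, the angiopoietin receptor gene Tek (log2 fold change 0.74 ± 0.09, SE, edgeR adjusted p = 0.00130), where 0.562% of all genes were called higher. The summed level of the 8 genes was 586 to 771 CPM in mutant and 445 to 581 CPM in wild type without overlap. Their log2 fold changes were above 0 for 7 and below 0 for 1, with a median of 0.24. At an unadjusted p under 0.05 (edgeR) 3 were higher and 0 lower, where 5.27% of all genes were higher and 6.09% lower. Without Tek, a sum made after seeing the data, the other 7 genes had 415 to 588 CPM in mutant and 348 to 480 CPM in wild type, and the groups overlapped. Sums that leave out another of the genes were not made. The part of endothelium in the Twist1 values was not tested.

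Snai2, the zinc finger repressor Slug that acts beside Twist1 in the epithelial to mesenchymal transition (chr16:14705945-14709488, plus strand, mm9), did not separate the groups. Its reads were 365, 322, 402 and 271 in mutant and 429, 108, 278 and 177 in wild type, or 40.5, 40.9, 39.5 and 27.1 CPM against 39.8, 14.8, 38.2 and 24.2 CPM. Mutant libraries 1 to 3 and wild type libraries 1 and 3 thus stood between 38.2 and 40.9 CPM, and the low values were those of mutant library 4 and wild type libraries 2 and 4. The log2 fold change was 0.33 ± 0.28 (SE, edgeR adjusted p = 0.737), 0.11 without wild type library 2 and -0.08 without wild type libraries 2 and 4. It was 0.55 in lane 1 and 0.08 in lane 2. Within each library, Twist1 reads were 1.26, 1.401, 1.32 and 1.48 times the Snai2 reads in mutant and 0.923, 1.23, 0.928 and 1.08 times in wild type. This ratio, looked at after the values were seen and given with no test, did not overlap between the groups, and its nearest values were 1.26 in mutant library 1 and 1.23 in wild type library 2.

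Twist1 and Snai2 varied together among libraries once the group means were removed. Across all 8 libraries Pearson's r of their log2 CPM was 0.887 (exact permutation p = 0.00704, two-sided, 0.0528 adjusted over the 15 pairs of tested members) and Spearman's rho 0.833 (exact permutation p = 0.0154, adjusted 0.231). With the group means removed, r was 0.992 (permutation p = 4.96e-05, adjusted 7.44e-04) and rho 0.976 (permutation p = 3.97e-04, adjusted 0.00595). These permutations ran across both groups, although removing the means ties the values within each group. The p-values with group means removed are therefore approximate and may be too small. Without the 2 libraries farthest from the median, mutant library 2 and wild type library 2, r was 0.684 (exact permutation p = 0.161, adjusted 0.902). With fewer libraries and a narrower range, this value cannot tell how far the relation over all libraries rested on those samples. With group means removed and mutant library 4 and wild type library 2 left out, r was 0.964 (permutation p = 0.00278, adjusted 0.0417) and rho 0.943 (permutation p = 0.0167, adjusted 0.25). Each lane held too few libraries for a value of its own. With all 8 libraries, 0 of the 15 pairs passed by either measure. With group means removed 1 pair passed by the approximate p-values, Twist1 with Snai2. The 2 genes were both low in wild type library 2 and in mutant library 4, the libraries highest in chamber muscle genes, and the part of that difference was not tested.

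**Figure D2:**
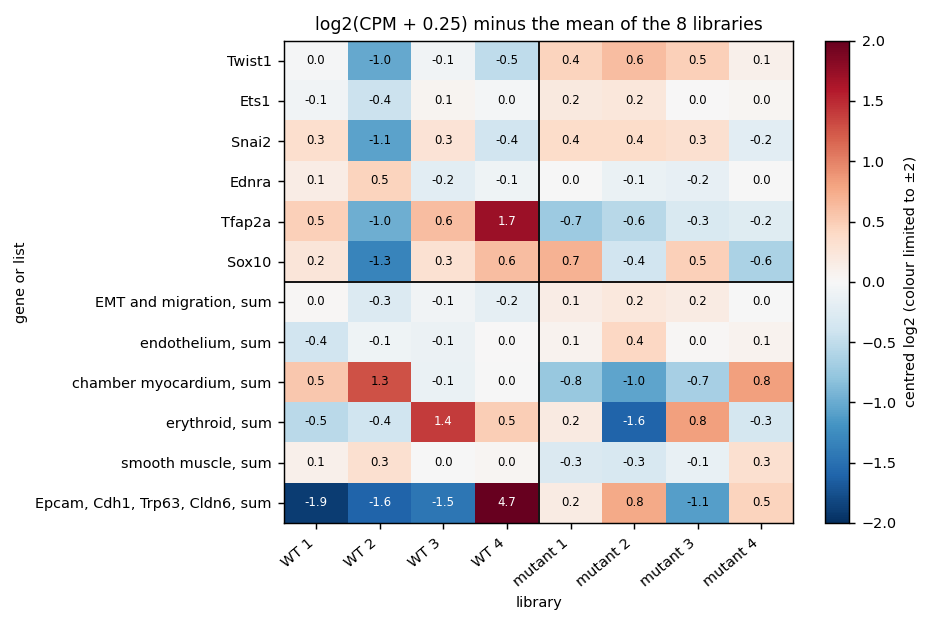
Level of the 6 tested neural crest genes (above the black line) and of summed gene lists (below it) in each library, as log2(CPM + 0.25) minus the mean of the 8 libraries, in log2 units, with red for higher and blue for lower values. WT stands for wild type, and colours stop at 2 while the printed values do not. Wild type library 2 is low in Twist1, Snai2, Tfap2a and Sox10 and high in chamber myocardium, and wild type library 4 is high in Tfap2a and in the sum of Epcam, Cdh1, Trp63 and Cldn6.

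Tfap2a, the AP-2 alpha factor of the neural plate border that is also active in surface ectoderm (chr13:40811044-40830289, minus strand, mm9), had 21, 21, 33 and 34 reads in mutant and 62, 14, 46 and 101 in wild type. These were 2.33, 2.67, 3.24 and 3.40 CPM in mutant and 5.75, 1.92, 6.33 and 13.8 CPM in wild type. Wild type libraries 1, 3 and 4 lay above every mutant library and wild type library 2 lay below every one, so the groups overlapped. The log2 fold change was -1.24 ± 0.46 (SE, n = 4 per group), which did not pass (edgeR adjusted p = 0.318). The size of the value and whether it passed shifted with the libraries that stood apart, while its sign did not. Without wild type library 2 it was -1.55 and passed (edgeR adjusted p = 0.0323, where 1.52% of genes were called), without mutant library 4 and wild type library 2 it was -1.63 and passed (edgeR adjusted p = 0.0353), and without wild type library 4 it was -0.69 (edgeR adjusted p = 0.461). Without both wild type libraries 2 and 4 it was -1.04 (edgeR adjusted p = 0.116, where 1.07% of genes were called). It was -0.66 in lane 1 and -1.61 in lane 2, a difference with an adjusted p of 0.548 (edgeR). Without the 2 libraries lacking Y-linked reads, 1 of them wild type library 4, it was -0.59 (edgeR adjusted p = 0.693). Some epithelial genes were highest in the same library as Tfap2a. Epcam, Cdh1, Trp63 and Cldn6, 4 genes picked from the epithelial list after their values were seen, summed to 94.5 CPM in wild type library 4 and to 0.742 to 5.97 CPM in the other 7. The keratin genes were divided. Krt18, the listed gene with the highest level per length, was also highest in wild type library 4, at 43.3 CPM against 22.7 to 31.8 CPM in the other 7. Krt8 and Krt19, the listed genes with the smallest p, were instead highest in wild type library 1. They had 35.1 and 42.4 CPM there, against 30.7 and 28.1 CPM in library 4. Over the whole list of 9 epithelial genes the sum was 74.7 to 85.8 CPM in mutant and 83.0 to 196.9 CPM in wild type, with Krt5 and Krt14 at or near 0 in all libraries, and the part of epithelium in the Tfap2a values was not tested. The authors' deposited table gave Tfap2a a false discovery rate of 0.00581 with a modified log2 fold change of 0.36, although its pooled FPKM of 0.960 in mutant and 2.15 in wild type run the other way.

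Sox10, the SOX factor kept by glial and melanocyte precursors of the crest (chr15:78985513-78994916, minus strand, mm9), had 17, 6, 16 and 6 reads in mutant and 14, 2, 10 and 13 in wild type. The lowest library was wild type library 2 and the groups overlapped throughout. The summed reads were 45 against 39, a wild type to mutant ratio of 0.95 (95% counting interval 0.603 to 1.49), which covers counting error only. The log2 fold change was 0.03 ± 0.52 (SE, edgeR adjusted p = 0.995), and it was 0.66 in lane 1 and -0.54 in lane 2. Foxd3, the forkhead factor of the premigratory crest (chr4:99322990-99325362, plus strand, mm9), had 0 reads in all 8 libraries, which with a floor of 3 counts allows up to 0.115 to 0.177 RPKM per library. Expression below that level was not detectable at this depth.

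Ets1, an ETS factor of crest, endothelium and blood (chr9:32443806-32565405, plus strand, mm9), was the member with most reads, 1391, 1242, 1372 and 1389 in mutant and 1386, 727, 1014 and 955 in wild type. Its levels were 154, 158, 135 and 139 CPM in mutant and 129, 99.95, 140 and 130 CPM in wild type. The groups overlapped through wild type library 3, and library 2 was again the lowest. The log2 fold change was 0.23 ± 0.11 (SE, edgeR adjusted p = 0.449). It was 0.45 in lane 1 and 0.01 in lane 2, a difference with an unadjusted p of 0.0349 that did not pass after adjustment (0.259, edgeR), where 2445 of all tested genes had an unadjusted p under 0.05 and 1 passed. Without wild type library 2 the log2 fold change was 0.14.

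Ednra, the receptor of endothelin 1 on crest-derived mesenchyme (chr8:80186930-80248363, minus strand, mm9), had 552, 439, 562 and 615 reads in mutant and 736, 613, 385 and 425 in wild type. Its levels were 61.3, 55.8, 55.2 and 61.4 CPM in mutant and 68.2, 84.3, 53.0 and 58.1 CPM in wild type. Wild type libraries 1 and 2 were above all others, and wild type library 3 was the lowest of the 8. The log2 fold change was -0.17 ± 0.13 (SE, edgeR adjusted p = 0.689). It was -0.38 in lane 1 and 0.06 in lane 2 (unadjusted p of the difference 0.0434, adjusted 0.284, edgeR), and wild type library 2, the highest, was on lane 1. Ednra overlaps another row on the opposite strand that held 568 reads, and Tfap2a overlaps one that held 12. Whether counting used strand is not stated, so such reads cannot be told apart.

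Dlx5 and Dlx6, neighbouring homeobox genes that act downstream of endothelin signalling in the arches, were near the limit of detection. Dlx5 (chr6:6827805-6832068, minus strand, mm9) had 4, 1, 2 and 1 reads in mutant and 7, 5, 7 and 12 in wild type. Every wild type library lay above every mutant library, both in reads and in CPM, where mutant libraries had 0.10 to 0.44 and wild type libraries 0.65 to 1.64 CPM. The values of mutant libraries 2, 3 and 4 lay under the floor of 3 counts, so their order and the ratios below rest on very few reads. Among 3367 genes with a total within 2 times that of Dlx5, 4.07% had no overlap and 2.76% were lower in mutant without overlap. The summed reads were 31 in wild type and 8 in mutant, a ratio of 4.25 after scaling (95% counting interval 1.91 to 10.7), which covers counting error only. The exact permutation test on mean CPM, run for Dlx5 after its values were seen, gave p = 0.0286 (two-sided), the smallest that the 70 arrangements of 4 against 4 can give. Any gene without overlap between the groups gives this value, so it adds nothing to the lack of overlap. With no filter on low counts the edgeR fit gave Dlx5 -2.09 on the log2 scale with an adjusted p of 0.215 over 24606 genes. Without wild type library 4, the one high in epithelial genes, the ratio was 3.31 (1.39 to 8.75), and it was 2.12 (0.695 to 7.68) in lane 1 and 8.69 (2.56 to 45.8) in lane 2. Without mutant library 1, which held 4 of the 8 mutant reads, it was 6.43 (2.27 to 25.1). Dlx6 (chr6:6813750-6817329, plus strand, mm9), 10475 bases from Dlx5, had 1 read in wild type library 2 and 0 in the other 7. The floor of 3 counts equals 0.486 to 0.749 RPKM for Dlx6, whose counted exons span 561 bases. In a single library, a level like that of Dlx5 in wild type would thus lie near that floor. Over the wild type libraries, Dlx6 had a mean of 0.061 RPKM and at most 0.245, and Dlx5 a mean of 0.700 RPKM and at least 0.462. Among other Dlx genes, Dlx2, named here after its values were seen, had 2, 14, 16 and 5 reads in mutant and 35, 6, 30 and 27 in wild type, overlapping groups with a log2 fold change of -1.55 ± 0.58 (SE, edgeR adjusted p = 0.317).

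**Figure D3:**
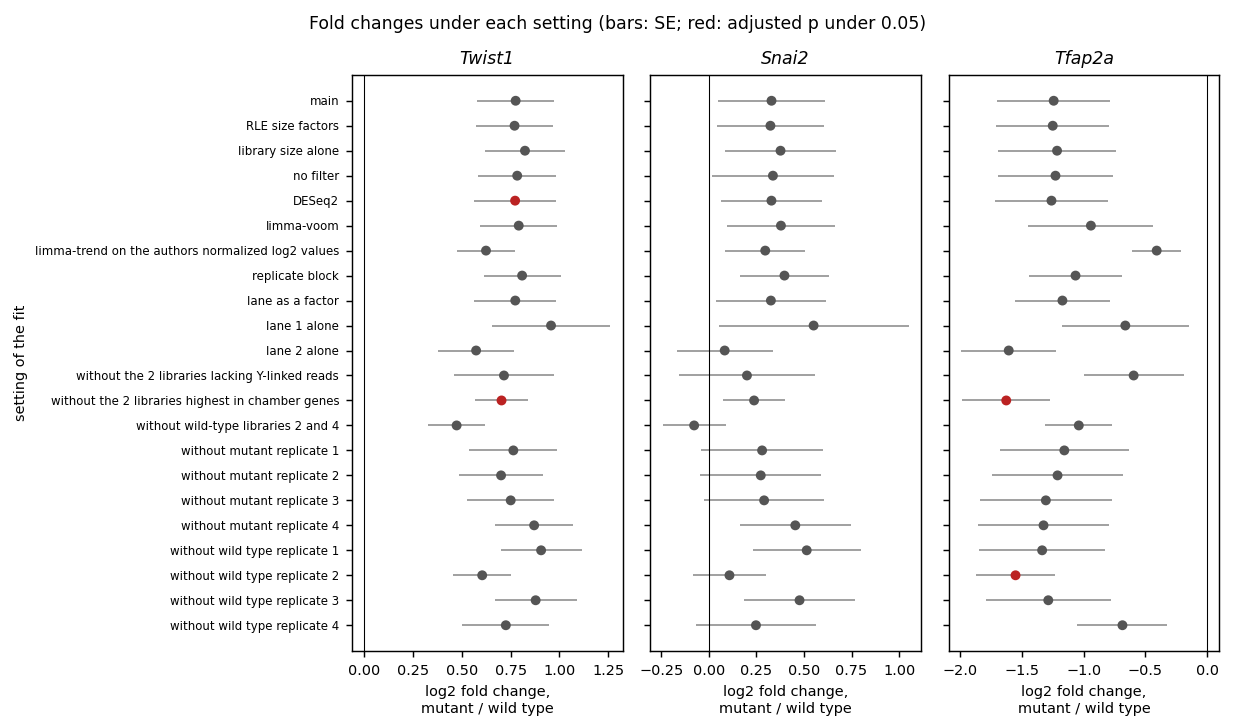
Log2 fold change of mutant over wild type (horizontal axis, bars are the SE) of Twist1, Snai2 and Tfap2a under the reported fit and 21 alternative settings, with adjusted p under 0.05 in red and a separate scale in each panel. Twist1 stays above 0, from 0.47 to 0.96, Snai2 runs from -0.08 to 0.55, and Tfap2a stays below 0, from -1.63 to -0.41.

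Beyond the 9 members, 5 lists of neural crest genes were read from the same fit, 78 genes with 77 rows, of which 54 passed the filter. Of the 54, 1 rose, 0 fell and 53 did not pass, where 1.50% of all genes were called. By edgeR 14 of the 54 had an unadjusted p under 0.05, 11 higher and 3 lower, where 5.27% of all genes were higher and 6.09% lower at that level. DESeq2 called 6 of the 54, where it called 2.98% of all genes. The median log2 fold change of the 54 was 0.08, against -0.01 over all genes tested. The called gene was Msx1, a homeobox factor of the neural plate border that is also active in endocardial cushions (chr5:38211727-38215822, minus strand, mm9). It had 216, 198, 260 and 176 reads in mutant and 143, 70, 71 and 82 in wild type, or 17.6 to 25.5 CPM against 9.62 to 13.3 CPM with no overlap. Its mean rose from 11.0 ± 1.69 to 23.1 ± 3.71 CPM (SD, n = 4), a log2 fold change of 1.06 ± 0.17 (SE, edgeR adjusted p = 0.00597), and it was 1.09 in lane 1 and 1.03 in lane 2. Its call was lost in lane 2 alone (adjusted p = 0.0828), without the 2 libraries lacking Y-linked reads (0.0614), without wild type libraries 2 and 4 (0.0505) and with a replicate block (0.0561), all by edgeR, at values from 0.99 to 1.06.

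Of the border and specifier list 9 of 18 genes passed the filter, and 8 of the 9 were not called, where 1.50% of all genes were called. Border factors such as Pax3 and Pax7 and the Tfap2a paralogs Tfap2b and Tfap2c were below the filter. Id2, an inhibitor of helix-loop-helix factors, had 72.5 to 95.8 CPM in mutant and 49.5 to 70.01 CPM in wild type, with a log2 change of 0.43 that did not pass (edgeR adjusted p = 0.146). Id3, the member with the highest level per length, stood at -0.004 (edgeR adjusted p = 0.997).

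Of the epithelial to mesenchymal transition and migration list 11 of 12 genes passed the filter and 0 changed, where 1.50% of all genes were called. By edgeR 5 were higher at an unadjusted p under 0.05 with 0 lower, where 5.27% of all genes were higher and 6.09% lower. The repressor Zeb1 had 107 to 122 CPM in mutant and 83.8 to 96.1 CPM in wild type, with a log2 change of 0.35 ± 0.08 (SE, edgeR adjusted p = 0.0653). Vim, the intermediate filament of mesenchymal cells, had 876 to 1066 CPM in mutant and 640 to 836 CPM in wild type, at 0.44 ± 0.11 (SE, edgeR adjusted p = 0.0840). Neither overlapped between groups, where mutant libraries were the higher ones without overlap for 3.44% of tested genes, and neither passed. The paralogs Snai1 and Twist2, named for their relation to the members, had log2 fold changes of -0.19 and -0.50, neither passing (edgeR adjusted p = 0.820 and 0.641). The median of the list was 0.23.

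**Figure D4:**
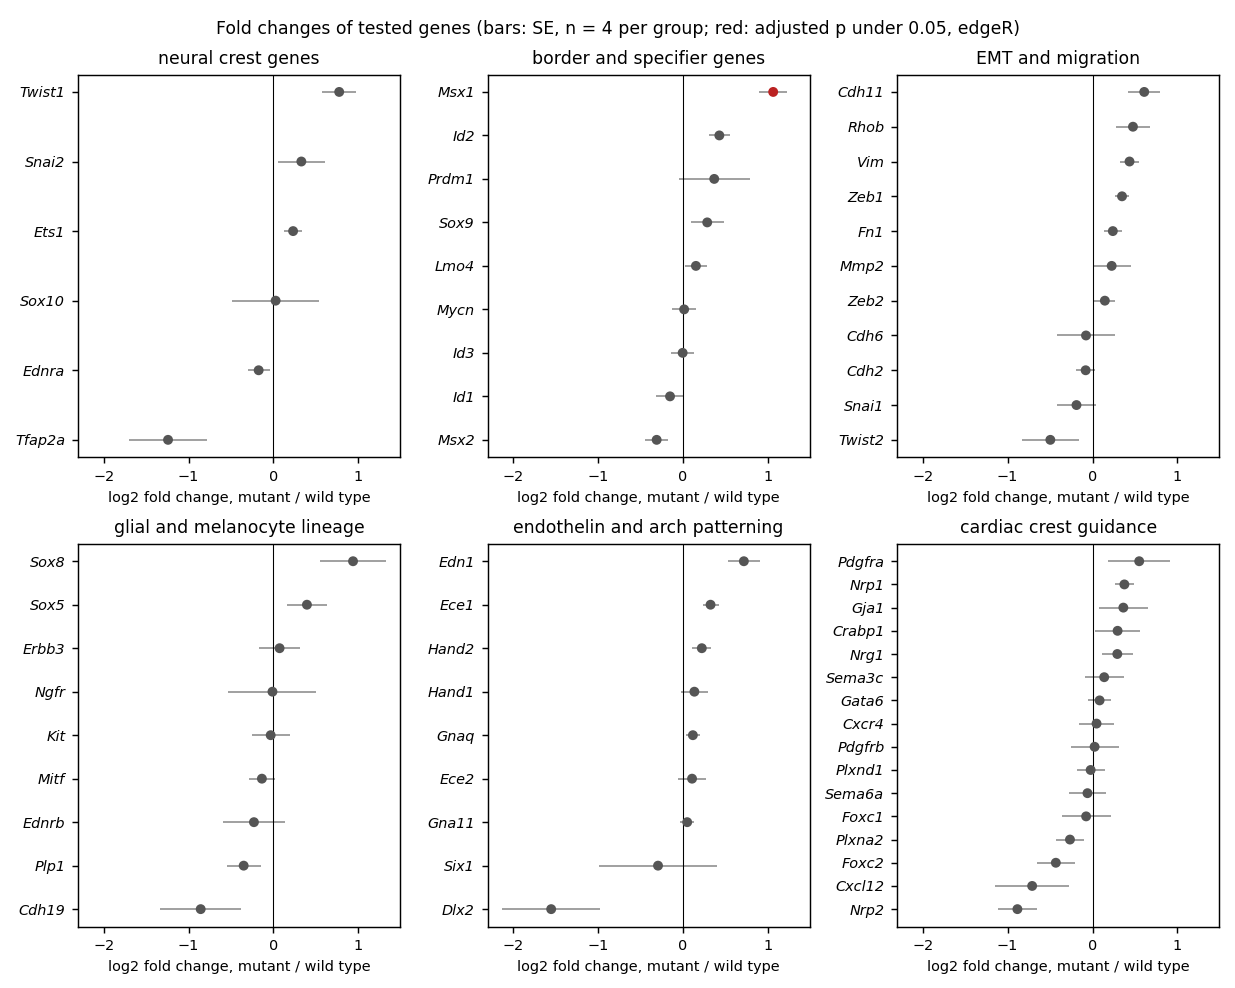
Log2 fold change of mutant over wild type (horizontal axis, bars are the SE, n = 4 per group) of the tested neural crest genes and the tested genes of 5 related lists, with adjusted p under 0.05 (edgeR) in red. Msx1 at 1.06 is the gene in red, Twist1 lies at 0.78 and Tfap2a at -1.24.

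Of the glial and melanocyte lineage list 9 of 12 genes passed and 0 changed, where 1.50% of all genes were called, with a median of -0.03. Sox8, a SOX factor related to Sox10, had 6.0, 14.2, 9.62 and 4.89 CPM in mutant and 4.54, 1.92, 5.23 and 6.28 CPM in wild type, overlapping groups with a log2 fold change of 0.94 (edgeR adjusted p = 0.384). Cdh19, a cadherin of Schwann cell precursors, stood at -0.86 (edgeR adjusted p = 0.555). Erbb3, the neuregulin receptor that crest and cushion mesenchyme share, had 63.8 to 80.3 CPM in mutant and 77.2 to 82.7 CPM in wild type libraries 1, 3 and 4 but 33.7 CPM in wild type library 2, with a log2 fold change of 0.07 (edgeR adjusted p = 0.948). Of 13 markers of crest-derived neurons 3 passed the filter and 0 changed, where 1.50% of all genes were called. Their summed level was 30.1 to 42.0 CPM in mutant and 27.5 to 36.9 CPM in wild type, which overlapped. Stmn2, a stathmin of growing neurites, had 8.49 to 17.9 CPM in mutant and 6.46 to 10.1 CPM in wild type, with a log2 fold change of 0.50 (edgeR adjusted p = 0.438). Tubb3, the neuronal beta tubulin, stood at -0.24 (edgeR adjusted p = 0.598). The noradrenaline enzyme gene Dbh and the neurofilament gene Prph, both named after their values were seen, were at or near 0 in every library.

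Of the endothelin and arch patterning list 9 of the 17 genes with a row passed the filter and 0 changed, where 1.50% of all genes were called. The ligand gene Edn1 had 46.5, 44.5, 45.9 and 31.8 CPM in mutant and 24.2, 18.8, 36.05 and 23.5 CPM in wild type. Wild type library 3 alone exceeded mutant library 4, and the log2 fold change of 0.72 ± 0.19 did not pass (SE, edgeR adjusted p = 0.101). Ece1, the protease that cuts the ligand to its active form, had 509 to 558 CPM in mutant and 388 to 469 CPM in wild type without overlap, at 0.33 ± 0.09 (SE, edgeR adjusted p = 0.143). The summed level of the list was 947 to 1050 CPM in mutant and 787 to 903 CPM in wild type, of which Ece1 alone made up the 509 to 558 and 388 to 469 CPM given above. Both Edn1 and Ece1 are also expressed in endothelium, and the part of that cell type in these values was not tested.

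Of the cardiac crest guidance list 16 of 18 genes passed and 0 changed, where 1.50% of all genes were called, with a median of 0.04. The semaphorin and VEGF receptor Nrp1 had 134 to 156 CPM in mutant and 96.1 to 131 CPM in wild type, at 0.38 (edgeR adjusted p = 0.143). Its relative Nrp2 stood the other way, with 81.7 to 98.7 CPM in mutant and 97.4, 176.8, 153 and 236 CPM in wild type libraries 1 to 4, at -0.89 ± 0.23 (SE, edgeR adjusted p = 0.116). Wild type library 1 alone fell within the mutant range. Gata6, a zinc finger factor of the outflow tract, stood at 0.08 (edgeR adjusted p = 0.879).

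The genes most like each tested member were found by Pearson's r of log2 CPM over the 8 libraries among 13646 genes, as a description. For Twist1 they were Unc13c (0.989), Enc1 (0.983) and Psd3 (0.982), and for Snai2 Tbx20 (0.982), Thbs1 (0.975) and Papss2 (0.974). Tbx20, a T-box factor of heart muscle and cushions, had a log2 fold change of 0.27 (edgeR adjusted p = 0.607). Those of Sox10 were Evi2b, 4930412M03Rik and Pik3c3, at 0.971 to 0.983, on a gene with at most 17 reads per library. Tfap2a was most like CT010505.1, Ube2o and Fdxacb1, at 0.938 to 0.952. Ets1 was most like A630007B06Rik, Cfi and Cachd1, at 0.978 to 0.987, and Ednra most like Capn6, Ccdc44 and Etf1, at 0.966 to 0.977. The libraries share depth and composition, and the highest of many correlations is large by choice.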

How the data were processed

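Per the labels' protocols, a Qiagen kit was used for RNA and a NuGEN kit for libraries. Per the submitters' processing notes, reads were aligned to mm9 with TopHat2 2.0.4. How reads were counted, the annotation release and the use of strand are not stated in the sources used here. Raw counts per gene were deposited by the authors. Normalized log2 values, 1 pooled FPKM per group and scores (p and false discovery rate on a scaled negative log10) were made by the authors with USeq, per the file headers. The authors' exon score was deposited with no stated scale and was used for its ranking alone.

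The fit used edgeR 4.0.16 in R 4.3.3 (filterByExpr, TMM, robust quasi-likelihood test, two-sided, group alone), adjusted by Benjamini-Hochberg over 14757 genes at 0.05. The SE is the log2 fold change over the square root of F. Log2 CPM used a prior count of 2. Alternatives used limma 3.58.1 and DESeq2 1.42.0. Single values used permutation tests (scipy 1.17.1), exact except for correlations with group means removed. With 4 libraries per group and 3 counts equal to 0.272 to 0.420 CPM, Foxd3, Dlx5 and Dlx6 have little precision. Counting intervals cover counting error only, as reads carried no molecular identifiers. The fit was tested on simulated data.

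The members and lists were chosen with earlier results of these data known. Genes were named by rule: the members and Mef2c; in each list those called, the 2 with the smallest p and the one highest per length; and the 3 genes most like each tested member. Exceptions are marked. Some listed genes are not reported here. The listed gene Dlx6os1 had no row. Same-numbered libraries did not deviate together, so numbers were not taken as pairs. All columns of sample values were mapped (0 left).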

Additional observations from a re-analysis of the deposited data

Results flagged for a closer look

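Each of 68 genes, the named genes and others of the lists, was checked, in either group, for a single library that stood far from the other 3. Of 136 groups 13 had one, where chance alone gives about 1 in 20. No explanation was weighed.

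Mutant library 4 was the low one for the member Snai2, at 4.77 log2 CPM against 5.31 to 5.36 in the others, for Msx1 at 4.15 (others 4.60 to 4.69) and for Edn1 at 5.0 (others 5.48 to 5.55). It was the high one for the muscle genes Actc1 at 13.3 (others 12.62 to 12.67) and Nppa at 5.12 (others 0.16 to 0.81).

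Wild type library 2 was the low one for Erbb3 at 5.08 (others 6.27 to 6.37), Id2 at 5.64 (others 6.06 to 6.13), Dlx2 at 0.08 (others 1.80 to 2.12) and 4930412M03Rik at 2.12 (others 3.15 to 3.19). It was the high one for Dlx6 at -1.45, where a single read stood against 0 in the other wild type libraries (-2.12).

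Wild type library 4 was the high one for the epithelial genes Epcam at 3.97, Cdh1 at 5.22 and Cldn6 at 4.97, against at most -0.64 in the other wild type libraries.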

How the results depend on the processing

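The directions of Twist1, Tfap2a, Ets1 and Msx1 held in all 21 alternative settings, and the Dlx5 ratio stayed above 1 in the 8 fits without 1 library (3.31 to 6.43). The Dlx5 ratio was not recomputed under other scalings. Sox10 had no stable direction: it was -0.54 in lane 2, -0.026 without the libraries lacking Y-linked reads, -0.047 without those highest in chamber genes, -0.14 without wild type libraries 2 and 4 (chosen after seeing the data), and -0.29 to 0.26 without 1 library. Snai2 turned to -0.077 without wild type libraries 2 and 4, and Ednra to 0.062 in lane 2. Members called were 1 by DESeq2 (Twist1), 2 without the libraries highest in chamber genes (Twist1 and Tfap2a) and 0 to 1 without 1 library (Tfap2a, without wild type 2). Genes of the 5 related lists called were 2 with library size alone, 6 by DESeq2, 0 with a replicate block, 4 in lane 1, 3 in lane 2, 0 without the libraries lacking Y-linked reads, 6 without those highest in chamber genes and 1 to 2 without 1 library. Of all genes, 222 (1.50%) were called in the reported fit, 231 with library size alone, 440 (2.98%) by DESeq2 and 76 with the block. There were 836 in lane 1 and 119 in lane 2. Without the libraries lacking Y-linked reads 95 were called, without those highest in chamber genes 296 (1.99%), and without 1 library 110 to 231. The replicate block gave Twist1 0.81 (edgeR adjusted p = 0.165). Same-numbered libraries shared a lane and otherwise only a number, with correlations of -0.05, -0.21, 0.22 and -0.29. Whether a call lost under the block reflects a weaker effect was not tested. Of 15 member pairs, 0 correlations passed with all 8 libraries and 1 with group means removed, the latter by an approximate p-value. The 36 pairs of all 9 members could not be compared, since 3 members were too low. The causes of these shifts were not tested. At 3 counts per library, levels under 0.272 to 0.420 CPM were not reliably detectable, and Dlx5 in mutant libraries 2, 3 and 4 lay under that floor.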
